A study of Mus musculus with 14 samples.

Results

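O4-positive cells, the immature oligodendrocytes (iOLs) of the early postnatal brain, were set against oligodendrocyte precursor cells (OPCs) of control mice at postnatal day 8. The comparison holds 3 O4 and 3 OPC libraries of 2afl/fl mice, out of 14 libraries in the series. It was read over 15565 of 18355 genes, those averaging at least 10 normalised counts over all 14 libraries. 2afl/fl mice have loxP sites around Mfsd2a and are the controls of the study. In 2aOKO mice, which gave the other 8 libraries (4 of each sort), a Pdgfra-driven Cre recombinase deletes that gene. These 8 libraries enter here through the averages by which genes were kept or named, through the estimate of the spread and where they are mentioned. Brain tissue was dissociated with papain and the cells were caught on O4 microbeads (iOLs) or CD140a microbeads (OPCs), CD140a being the Pdgfra receptor. Each library was made from 900 ng of total RNA. The labels do not say whether an animal gave cells to both sorts, nor whether animals were pooled.

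OPCs divide, migrate and sense axons and growth factors before they leave the cell cycle and differentiate. The study describes iOLs as committed cells that do not yet myelinate. They come before the oligodendrocytes that wrap axons. The transcription factor Myrf and its partners switch the myelin programme on, and the O4 antibody binds sulfatide, a lipid that appears on the cell surface as differentiation starts. Myelin and cell cycle genes are set aside below in favour of the other functions that differ between the sorts.

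The 5 markers followed the labels. Values are normalised counts, which are the reads counted for a gene over the size factor of the library, and are given in the order of libraries 1, 2 and 3. Enpp6, a choline phosphodiesterase of newly forming oligodendrocytes, had 30280.4, 12585 and 51219 in O4 libraries, against 76.6, 7.28 and 48.5 in OPC libraries. The myelin genes Mbp and Mag rose as well, with log2 fold changes of 6.99 ± 0.38 and 9.09 ± 0.45 (SE). Draxin, a secreted guidance protein of precursors (chromosome 4, 148182894 to 148215156 in mm39), had 469, 339.6 and 380.0 in O4 libraries, against 1859, 1139 and 2324 in OPC libraries, a log2 fold change of -2.11 ± 0.21. Pdgfra, by which the OPCs were caught, had 112936, 185959 and 123948 in O4 libraries, against 263975, 237133 and 311699 in OPC libraries, so the O4 sort still held much of this precursor transcript. The sorts did not overlap in any of the 5 markers, and over all genes tested 17.6% lay apart with O4 cells higher and 16.5% with O4 cells lower.

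Over the whole series the values summed to 34120823 to 41030171 normalised counts per library, with 16964 to 17662 genes above 0. In these bulk samples fewer cells of a type and less RNA per cell cannot be told apart. A gene is said to have risen or fallen where limma gave an adjusted p under 0.05 over all 15565 genes, and fold changes are on the scale of log2(value + 1), O4 minus OPC.

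O4 cells differed from OPCs in 4128 genes. Of these 2223 rose (14.3% of the genes tested) and 1905 fell (12.2%). The median log2 fold change over all genes was -0.01. Increases reached much further than decreases. At least 2-fold differences were found in 600 of the genes that rose and 145 of those that fell, at least 4-fold differences in 233 and 9, and at least 8-fold differences in 98 and 0. The median size was about equal, at 0.55 on the log2 scale in each direction. Some genes were near 0 in OPCs and well expressed in O4 cells, but none the other way round. By limits chosen after the values were seen, 14 genes that rose had an OPC mean under 20 and an O4 mean of at least 200, and 0 genes that fell had the reverse.

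The split between increases and decreases depended on the scale. Scaled to the library total, 1575 genes rose and 2974 fell, and the median over all genes became -0.12. All changes below are relative to the authors' size factors, which leave that median near 0. In the 6 libraries fitted alone 628 genes rose and 220 fell, and of the 346 genes chosen by the naming rule 138 lost their call in that fit. Without the O4 library 1, 1448 rose and 1027 fell, and without the O4 library 3, 1430 rose and 1287 fell. Without the OPC library 3 the counts were 1660 and 1168.

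The O4 library 2 lay between the sorts. To place each library, 826 genes were taken that differed at least 2-fold between the sorts in the 2aOKO libraries alone, 691 higher and 135 lower in O4 cells. Each 2afl/fl library was then read on a scale from 0, the mean of the 2aOKO OPC libraries, to 1, the mean of the 2aOKO O4 libraries. The O4 libraries 1, 2 and 3 stood at 1.01, 0.72 and 1.08, against 0.04, 0.00 and -0.04 for the OPC libraries. On the genes that were higher in O4 cells, the O4 library 2 stood at 0.75. On those that were lower it reached only 0.45, against 0.91 and 0.95 for the other 2 O4 libraries. It thus stood nearer to the other O4 libraries on the genes that were higher than on those that were lower. With it left out 5880 genes were called, 3033 higher and 2847 lower.

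**Figure D1:**
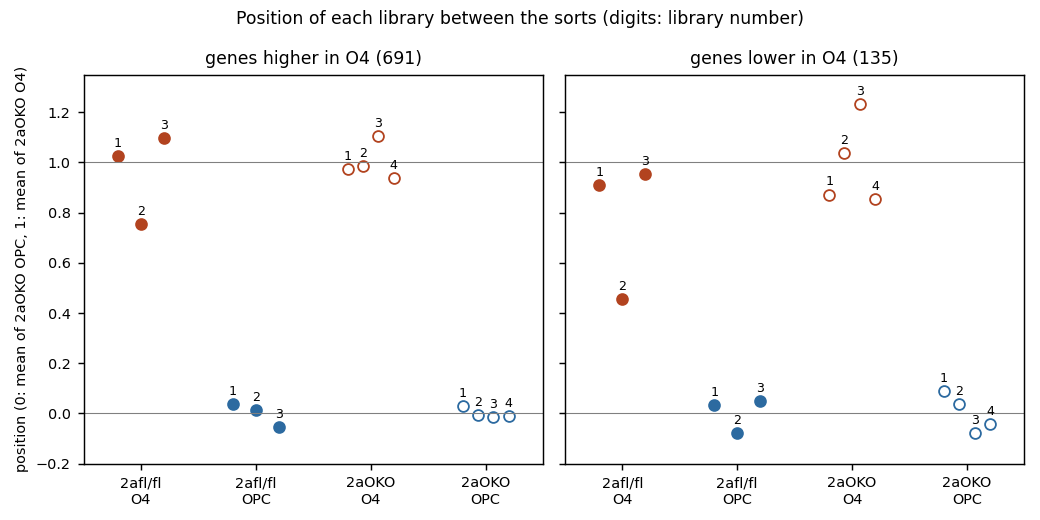
Position of each library between the sorts (vertical axis: 0 is the mean of the 2aOKO OPC libraries and 1 the mean of the 2aOKO O4 libraries), for 691 genes higher and 135 genes lower in O4 cells of 2aOKO mice, with 1 point per library and its number beside it. The 2afl/fl O4 library 2 stands at 0.75 and 0.45, below all other O4 libraries and above all OPC libraries.

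Outside every list, the 15 lowest p-values in each direction, of genes averaging at least 50 normalised counts, show what the strongest changes look like. In all 15 that rose, every O4 library lay above every OPC library. Their small p-values come from these same libraries, so this follows from the choice. The sorts lay apart in 90.8% of the 2223 genes that rose. Over all genes tested 17.6% lay apart with O4 cells higher. Cdk18, a cyclin-dependent kinase not tied to the cell cycle, had 2830.0, 1081 and 3741 in O4 libraries, against 14.2, 3.64 and 8.43 in OPC libraries, a log2 fold change of 8.01 ± 0.43 with an adjusted p of 5.1e-08. Tmem88b, a membrane protein of oligodendrocytes, had 6668, 2938 and 11109 in O4 libraries, against 141, 97.4 and 184 in OPC libraries, and Tmem151a, another membrane protein, had 2358, 958 and 2831 in O4 libraries, against 79.4, 61.9 and 29.5 in OPC libraries. In each of these genes the O4 library 2 had the lowest O4 value and still stood far above every OPC library. Others of the 15 make or modify proteins and transmitters. Padi2, which turns arginines of myelin proteins into citrulline, rose by 3.69 on the log2 scale (1046, 731 and 1584 in O4 libraries, against 77.5, 55.5 and 125 in OPC libraries). Ddc, the decarboxylase of dopamine and serotonin synthesis, rose by 3.74 (2296, 932 and 2623 in O4 libraries, against 123, 147 and 126 in OPC libraries). Lgi3, a secreted partner of ADAM-family receptors, rose by 4.63, the lens filament gene Bfsp2 by 4.29, the kinesin Kif19a by 5.45 and the chimaerin Chn2, which switches the GTPase Rac off, by 3.59.

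Promoters are shown for the first of these genes that rose, taken in the order of their p-values. Of the first 4 by p, 3 matched an entry in the RefSeq promoter table of build GRCm38.p6, on the minus strand each. The 250 bases before the start are given 5′ to 3′, with capitals where a searched motif matched on either strand.
Cdk18, chr1:132139686-132139935: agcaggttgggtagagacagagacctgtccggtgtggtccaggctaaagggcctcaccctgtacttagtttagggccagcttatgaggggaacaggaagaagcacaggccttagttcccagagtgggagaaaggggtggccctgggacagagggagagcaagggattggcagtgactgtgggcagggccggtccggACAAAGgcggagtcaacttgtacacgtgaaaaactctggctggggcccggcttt
Tmem88b, chr4:155785875-155786124: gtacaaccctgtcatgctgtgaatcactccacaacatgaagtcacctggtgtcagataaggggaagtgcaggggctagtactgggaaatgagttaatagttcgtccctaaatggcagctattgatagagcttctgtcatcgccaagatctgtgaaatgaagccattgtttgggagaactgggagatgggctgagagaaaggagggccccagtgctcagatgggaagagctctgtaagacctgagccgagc
Tmem151a, chr19:5085492-5085741: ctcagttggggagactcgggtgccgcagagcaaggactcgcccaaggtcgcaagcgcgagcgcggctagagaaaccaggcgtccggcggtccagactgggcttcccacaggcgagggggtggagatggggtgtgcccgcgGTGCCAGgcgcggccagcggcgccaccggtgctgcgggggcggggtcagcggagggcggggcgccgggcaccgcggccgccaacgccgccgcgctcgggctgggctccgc

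The Cdk18 match is the SOX core ACAAAG, 54 bases before the start, and the Tmem151a match is the MYRF site CTGGCAC on the opposite strand, 110 bases before the start. Over windows from 250 bases before to 50 after the start, matched for 12277 of the genes tested, the MYRF site was held by 10.1% of the 178 matched genes that rose at least 4-fold, 5.39% of the 1762 that rose, 4.55% of the 1451 that fell and 5.01% of all. The at least 4-fold group was chosen after the values were seen. The E2F site TTCCCGC was held by 3.37%, 6.24%, 11.7% and 8.18% of the same groups, the SOX core by 16.3%, 12.8%, 14.7% and 14.1%, and the E-box CAGCTG by 21.9%, 15.8%, 17.0% and 15.5%. These shares are descriptions without a test, and a match is not a site.

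The 15 genes outside every list that fell changed by much less. Cdk6, the kinase that drives cells out of the first gap phase, had 1030.2, 1329.6 and 889 in O4 libraries, against 2260.1, 2215 and 2249 in OPC libraries, a log2 fold change of -1.07 ± 0.13. Sncaip, which encodes a partner of alpha-synuclein, had 292, 496 and 304 in O4 libraries, against 768, 1075 and 799 in OPC libraries, and Adamts12, a secreted metalloprotease, had 333, 447 and 347 in O4 libraries, against 882, 856 and 843 in OPC libraries. Their O4 libraries did not overlap with the OPC libraries, which also held in 89.6% of the 1905 genes that fell. Over all genes tested 16.5% lay apart with O4 cells lower. Fstl5, Ranbp3l and Rab11fip4 fell by more than 2-fold as well, with log2 fold changes of -1.10, -1.31 and -1.07. Dpysl3, a collapsin response mediator of growing processes, stayed abundant at 18292, 21885 and 20515 in O4 libraries, against 31331, 29541 and 37452 in OPC libraries, with a log2 fold change of -0.69 ± 0.10.

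The 54 lists of functions show how the change was shared out. Counts are to be read against 14.3% of all genes higher and 12.2% lower. Lists of voltage-gated channels, transmitter receptors, cadherins and precursor transcription factors lay above the lower share. Lists of actin and microtubules, the lysosome, energy metabolism, protein synthesis and the proteasome lay above the higher share. Not all of this was seen in other fits. In the 6 libraries alone 4.03% of all genes rose and 1.41% fell. There 0 members fell among sodium and calcium channels, GABA-A, glycine and acetylcholine receptors and cadherins. In the same fit 0 rose in oxidative phosphorylation, ribosome assembly, translation factors, synthetases and the proteasome. At such low shares lists of this size hold few calls, so a count of 0 cannot tell whether a list kept its lean. Scaled to the library total, where 10.1% of all genes rose and 19.1% fell, ribosome assembly (3 of 40 higher), synthetases (2 of 20) and the proteasome (4 of 40) lay at or below the higher share. Each list is given below with its range over fits that leave out 1 library and its count in the 6 libraries alone.

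**Figure D2:**
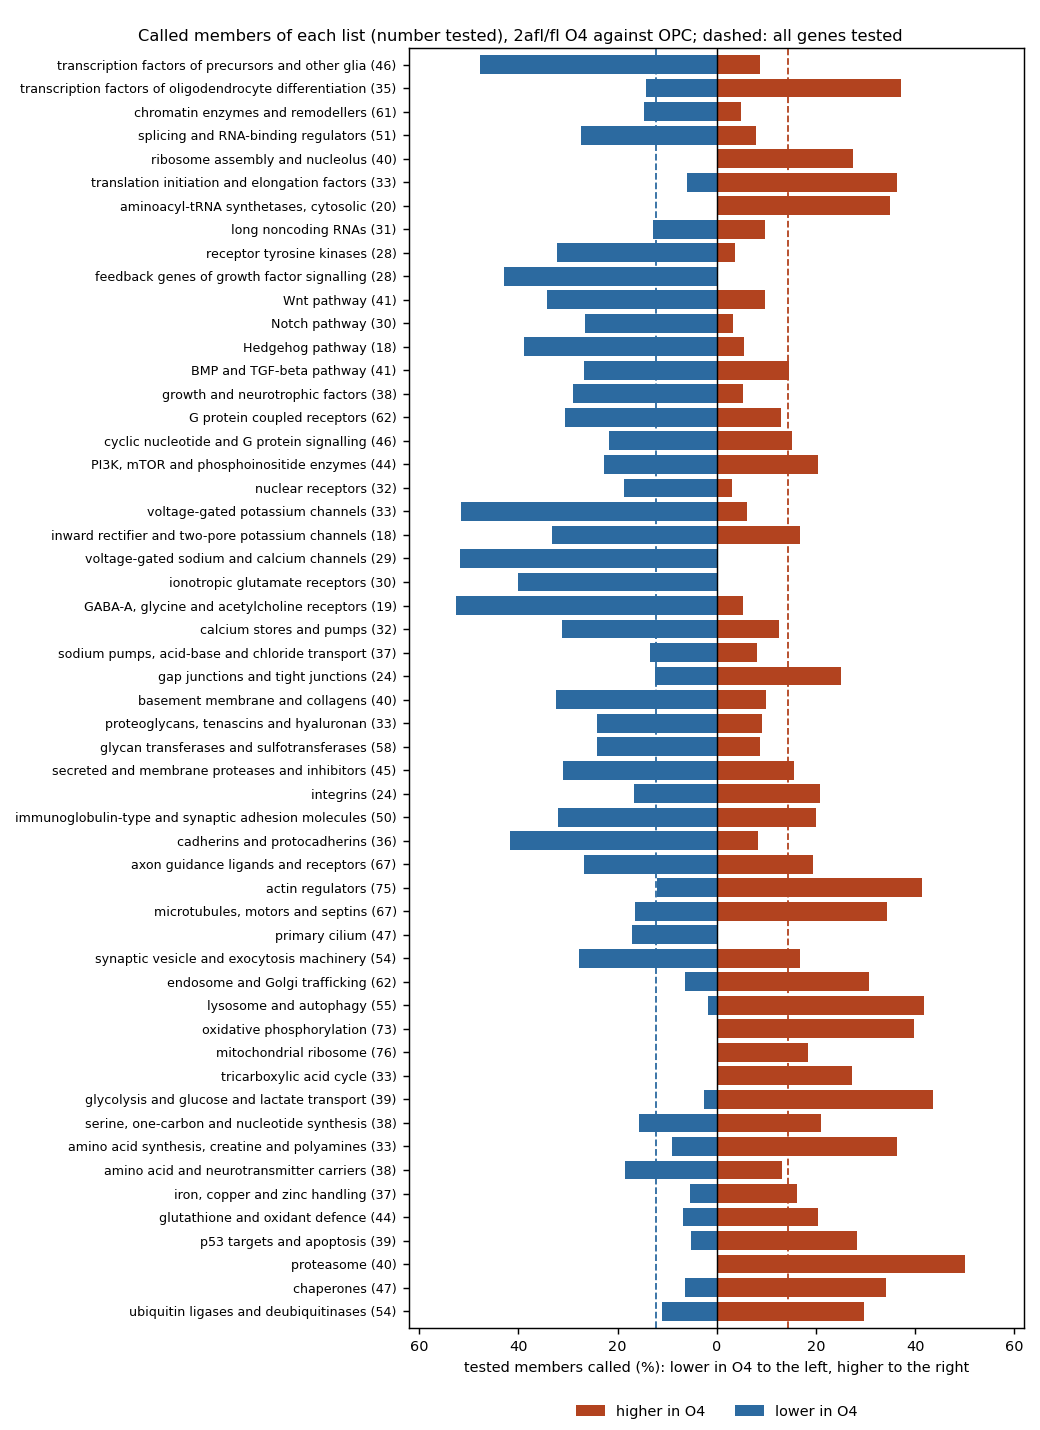
Share of the tested members of 54 lists of functions that rose (bars to the right) or fell (bars to the left) in 2afl/fl O4 cells against OPCs, in percent, with the number tested in brackets and dashed lines at 14.3% and 12.2%, the shares over all genes tested. The GABA-A, glycine and acetylcholine receptors reach 52.6% lower and the proteasome 50% higher.

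Transcription factors changed in both directions. Of the factors of oligodendrocyte differentiation, 13 of 35 tested members rose (12 to 14 with any 1 library left out and 11 in the 6 alone) and 5 fell (2 to 6 and 1) (median log2 fold change 0.12, or 0.01 scaled to the total). Myrf (chromosome 19, 10185635 to 10218113 in mm39), the factor that binds myelin gene enhancers, had 22305, 10595 and 32869.7 in O4 libraries, against 1337, 1197 and 1716 in OPC libraries. Nkx6-2, a homeodomain factor of myelinating cells, had 396, 201 and 632 in O4 libraries, against 1.89, 1.82 and 12.6 in OPC libraries, and Nfe2l3 of the cap'n'collar family had 692, 374 and 967 in O4 libraries, against 39.7, 23.7 and 16.9 in OPC libraries, log2 fold changes of 6.27 ± 0.59 and 4.59 ± 0.36. Myt1, a zinc finger factor of early progenitors, and Creb5, of the CREB family, moved the other way, at -0.76 and -1.09. Creb5 had 721, 1798 and 783 in O4 libraries, against 2151, 2514 and 1829 in OPC libraries. Here the O4 library 2 lay just below the OPC range, far from the other O4 libraries.

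Of the factors of precursors and other glia, 22 of 46 tested members fell (17 to 26 with any 1 library left out and 9 in the 6 alone) and 4 rose (2 to 5 and 2) (median -0.44). Lhx2, a LIM homeodomain factor, had 790.2, 856 and 663 in O4 libraries, against 1476, 1114 and 1331 in OPC libraries. Meis2, a TALE homeodomain factor, had 1310.4, 1696 and 1280.2 in O4 libraries, against 2223, 2369 and 2257 in OPC libraries, and Zeb1, a zinc finger repressor of epithelial genes, had 7929, 10825 and 8681 in O4 libraries, against 15931, 13521 and 15129.6 in OPC libraries. Their log2 fold changes were -0.76 ± 0.11, -0.69 ± 0.10 and -0.71 ± 0.12, with no overlap between the sorts. Zeb2, the paralog that promotes myelination by damping BMP signals, went against Zeb1. It had 13027, 10144 and 25912 in O4 libraries, against 6392, 5804 and 7095 in OPC libraries, a log2 fold change of 1.23 ± 0.24. Klf9, a thyroid hormone target, rose too, by 0.89. Tcf4, the most abundant member, was close in both sorts, with 17023, 19772 and 22461 in O4 libraries, against 21699.5, 21064 and 22606 in OPC libraries.

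Chromatin genes moved little, and 9 of 61 tested members fell (6 to 15 with any 1 library left out and 1 in the 6 alone) and 3 rose (1 to 9 and 0) (median -0.05, or -0.17 scaled to the total). Uhrf1 and Dnmt1, which copy DNA methylation at replication, fell by 0.84 and 0.47 on the log2 scale. The remodeller Chd7 had 7138, 9292 and 8479 in O4 libraries, against 10850.5, 11462 and 12461 in OPC libraries. Hdac5, a class II histone deacetylase, rose by 0.47. Among splicing and RNA-binding regulators 14 of 51 tested members fell (8 to 15 with any 1 library left out and 1 in the 6 alone) and 4 rose (2 to 7 and 1) (median -0.07, or -0.18 scaled to the total). The neuronal splicing factors Nova1, Celf5 and Elavl4 fell, at -0.48, -0.69 and -0.67, while Elavl3 of the same family as Elavl4 rose, with 12565, 8890.4 and 17670.5 in O4 libraries, against 5235, 5737 and 5390.1 in OPC libraries. Of long noncoding RNAs 3 of 31 tested members rose (3 to 4 with any 1 library left out and 3 in the 6 alone) and 4 fell (4 to 8 and 1) (median -0.13, or -0.24 scaled to the total). The strongest was 9630013A20Rik, known as lncOL1 from newly formed oligodendrocytes, with 8353, 3414 and 11265 in O4 libraries, against 176, 210.3 and 175 in OPC libraries, while Miat had 10479, 15496 and 12728 in O4 libraries, against 22576, 20199 and 22281 in OPC libraries, a log2 fold change of -0.77 ± 0.13. With numbers as a block, 5 rose and 14 fell in the chromatin list. On the scale of library totals 2 rose and 16 fell in the chromatin list, 3 rose and 22 fell in the splicing list, 3 rose and 8 fell in the long noncoding RNA list and 13 rose and 8 fell in the differentiation factor list. Some of these counts moved by over 1.5 times without the O4 library 1, the O4 library 2, the O4 library 3, the OPC library 1, the OPC library 2 or the OPC library 3.

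**Figure D3:**
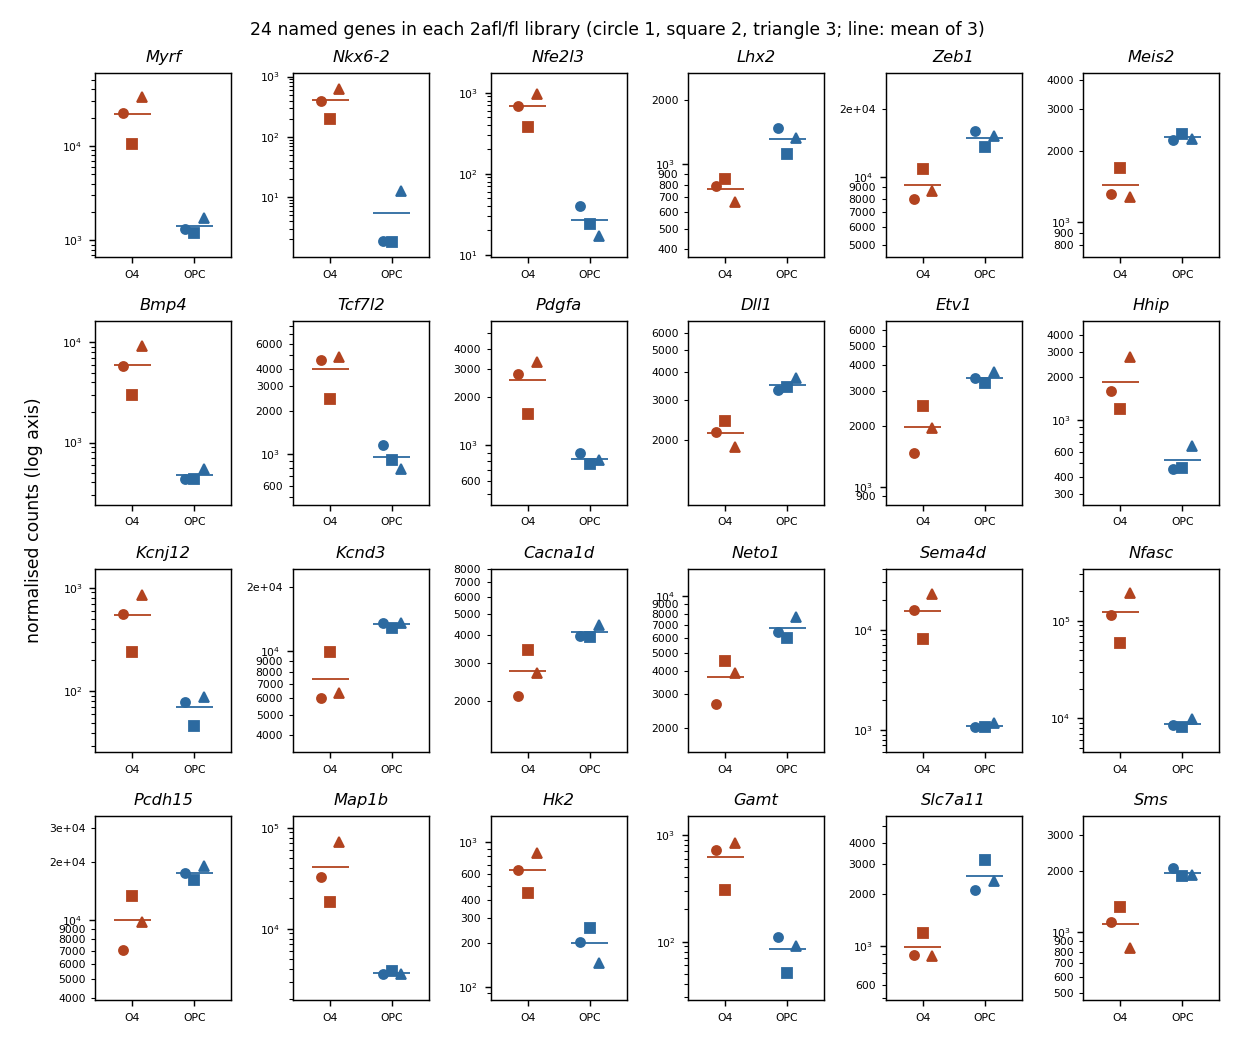
Normalised counts (log axis) of 24 named genes in the 3 O4 and 3 OPC libraries of 2afl/fl mice, with a circle, square and triangle for libraries 1, 2 and 3 and a line at the mean of each sort. The 24 panels show genes that rose or fell, picked by hand from the 346 named. In each panel the groups do not overlap, which largely follows from the choice of genes by small p-values in these same libraries. Over all genes tested 17.6% lay apart with O4 cells higher and 16.5% with O4 cells lower. The square of the O4 group, library 2, is the O4 value nearest to the OPC values in all 24 panels. It is not in some other genes that fell, such as Draxin (469, 339.6 and 380.0 in O4 libraries) and Dll3 (1819, 1365 and 1762).

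Genes of protein synthesis rose more often than they fell, by small amounts. In ribosome assembly 11 of 40 tested members rose (2 to 21 with any 1 library left out and 0 in the 6 alone) and 0 fell (0 and 0) (median 0.18, or 0.07 scaled to the total), among translation factors 12 of 33 tested members rose (4 to 20 with any 1 library left out and 0 in the 6 alone) and 2 fell (1 to 2 and 0) (median 0.19, or 0.08 scaled to the total), and among cytosolic aminoacyl-tRNA synthetases 7 of 20 tested members rose (1 to 12 with any 1 library left out and 0 in the 6 alone) and 0 fell (0 and 0) (median 0.18, or 0.07 scaled to the total). All 20 tested synthetases had a positive log2 fold change, but only 13 did scaled to the library total. Eif4a1, the helicase that unwinds messenger RNAs for the ribosome, had 13961, 9178 and 14334 in O4 libraries, against 7526, 7841 and 7175 in OPC libraries, and Eif5a, the hypusine-bearing elongation factor, had 16109.8, 12219 and 14908 in O4 libraries, against 10525, 10824 and 9433 in OPC libraries. Qars, the glutaminyl-tRNA synthetase, had 1911, 1428 and 1983 in O4 libraries, against 1211, 1119 and 1188 in OPC libraries, a log2 fold change of 0.58 ± 0.10. In all 3 genes the O4 library 2 lay close to the OPC range. Eef2k, the kinase that slows elongation, fell by 0.35. Ncl (nucleolin), the most abundant ribosome assembly gene, had 20433, 15327 and 20088 in O4 libraries, against 17437, 16586 and 15842 in OPC libraries, and the sorts overlapped. Scaled to the total, 3 rose and 0 fell in the ribosome assembly list, 7 rose and 3 fell in the translation factor list and 2 rose and 0 fell in the synthetase list. Without the O4 library 1, the O4 library 2, the O4 library 3, the OPC library 1 or the OPC library 3, some counts moved by over 1.5 times.

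Signalling lists leaned towards lower values in O4 cells. Among feedback genes of growth factor signalling 12 of 28 tested members fell (6 to 13 with any 1 library left out and 1 in the 6 alone) and 0 rose (0 and 0) (median -0.35). Etv1 and Etv5, ETS factors induced by FGF and PDGF signals, both fell. Etv1 had 1470.1, 2524 and 1968 in O4 libraries, against 3455, 3262 and 3691 in OPC libraries, and Etv5 had 4630.5, 7580.2 and 4379.8 in O4 libraries, against 8986, 9269 and 9909 in OPC libraries. Spred3, an inhibitor of Ras signalling, had a log2 fold change of -0.75 ± 0.16. The immediate early gene Egr1 had 18742, 18268 and 10875 in O4 libraries, against 30411, 21976 and 24442 in OPC libraries, with no call here but one under the replicate block. Of receptor tyrosine kinases 9 of 28 tested members fell (6 to 12 with any 1 library left out and 2 in the 6 alone) and 1 rose (1 to 3 and 0) (median -0.29). Ntrk3, the receptor of neurotrophin 3, and Ptk7, a Wnt co-receptor, fell, by 0.73 and 0.43 on the log2 scale. Fgfr2, the FGF receptor that favours myelin growth, rose instead, with 2175, 1368 and 2345 in O4 libraries, against 1372, 749 and 755 in OPC libraries, although its highest OPC value overlapped with the O4 range. In the blocked fit 3 rose and 12 fell in the receptor tyrosine kinase list. A change of over 1.5 times in some counts followed from leaving out the O4 library 1, the O4 library 2, the O4 library 3 or the OPC library 3.

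Genes of developmental pathways changed in both directions. In the Wnt list 14 of 41 tested members fell (4 to 16 with any 1 library left out and 3 in the 6 alone) and 4 rose (4 and 4) (median -0.25). Tcf7l2, the Wnt effector that oligodendrocytes also use to start differentiation, had 4619, 2426 and 4811 in O4 libraries, against 1153, 904 and 791 in OPC libraries. Prickle1, of the planar polarity branch, had 2059.6, 1670.2 and 2668 in O4 libraries, against 527, 644 and 476 in OPC libraries, and Daam2, a formin that relays Wnt signals, had 1474, 1214 and 1826 in O4 libraries, against 701, 639.9 and 609 in OPC libraries. Log2 fold changes were 2.01 ± 0.21, 1.94 ± 0.19 and 1.19 ± 0.17. Lgr5, the R-spondin receptor, fell, with 165, 264 and 247 in O4 libraries, against 396, 406 and 416 in OPC libraries, and so did Rnf43, which clears Wnt receptors, by 0.63. Ctnnb1 (beta-catenin) had 36745, 36449 and 37966 in O4 libraries, against 38333, 37889 and 36811 in OPC libraries, with no call. In the Notch list 8 of 30 tested members fell (5 to 11 with any 1 library left out and 2 in the 6 alone) and 1 rose (1 to 2 and 0) (median -0.10, or -0.22 scaled to the total), with the ligand genes Dll1 (2163, 2421 and 1851 in O4 libraries, against 3337, 3432 and 3759 in OPC libraries) and Dll3 (1819, 1365 and 1762 in O4 libraries, against 3009.7, 2409 and 3832 in OPC libraries) among those that fell, and Dner, a Notch-binding protein of neural cells, at -0.61. Heyl, a target of Notch, rose by 0.56. In the Hedgehog list 7 of 18 tested members fell (5 to 10 with any 1 library left out and 2 in the 6 alone) and 1 rose (1 and 1) (median -0.30). The co-receptors Gas1 and Cdon fell, at -0.72 and -0.51, while Hhip, which traps Hedgehog ligands, had 1614, 1190.0 and 2778 in O4 libraries, against 457, 459.7 and 657 in OPC libraries, and rose by 1.76. With numbers as a block, 2 rose and 9 fell in the Notch list. Omitting the O4 library 1, the O4 library 3, the OPC library 2 or the OPC library 3 moved some of the counts by over 1.5 times.

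BMP and other growth factor genes changed in both directions as well. In the BMP and TGF-beta list 11 of 41 tested members fell (8 to 17 with any 1 library left out and 3 in the 6 alone) and 6 rose (4 to 5 and 4) (median -0.21, or -0.32 scaled to the total). Bmp4 (chromosome 14, 46620982 to 46628127 in mm39), an inhibitor of oligodendrocyte differentiation when applied to OPCs, rose in O4 cells, with 5796, 2974 and 9122 in O4 libraries, against 430.1, 432 and 547 in OPC libraries. Bmp2 and Bmp7 of the same ligand family ran the other way. Bmp2 had 232, 323 and 209 in O4 libraries, against 447, 584 and 599 in OPC libraries, and Bmp7 had 3621, 5099 and 3040.1 in O4 libraries, against 6009, 6749.9 and 6133 in OPC libraries. Smad7, which blocks both pathways, and Smad3, which relays TGF-beta, rose by 1.21 and 1.25. Among growth and neurotrophic factors 11 of 38 tested members fell (6 to 12 with any 1 library left out and 1 in the 6 alone) and 2 rose (2 to 3 and 2) (median -0.30). Pdgfa, the ligand of the precursors' own receptor, had 2768, 1571 and 3308 in O4 libraries, against 899, 770.1 and 807 in OPC libraries, a log2 fold change of 1.56 ± 0.20. Csf1, the survival factor of microglia, rose by 0.66. Ptn (pleiotrophin), a ligand of the receptor Ptprz1, had 43789, 52363 and 38493 in O4 libraries, against 64627, 61607 and 64578 in OPC libraries. Igf2, which is also on the meningeal fibroblast list below, fell by 1.11. Scaled to the total, 4 rose and 14 fell in the BMP and TGF-beta list. Counts here moved in part by over 1.5 times without the O4 library 2, the O4 library 3, the OPC library 1 or the OPC library 3.

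Of G protein coupled receptors 19 of 62 tested members fell (8 to 27 with any 1 library left out and 0 in the 6 alone) and 8 rose (6 to 9 and 5) (median -0.19, or -0.30 scaled to the total). S1pr5, the sphingosine phosphate receptor of oligodendrocytes, had 625, 355 and 1069 in O4 libraries, against 30.2, 23.7 and 39 in OPC libraries, and the calcium-sensing receptor Casr had 1614, 1227 and 2957 in O4 libraries, against 0, 4.55 and 10.5 in OPC libraries. Ednrb, the endothelin receptor of OPCs, had 28367, 39596 and 30519.6 in O4 libraries, against 50692, 44906 and 57636 in OPC libraries, and Adora1, an adenosine receptor, had 5347, 9089 and 5104 in O4 libraries, against 10688, 10577 and 11379 in OPC libraries. Both fell, by 0.65 and 0.79, without overlap. P2ry12, a receptor of microglia, rose by 1.52, together with the other microglial genes below. Second messenger genes were split. Of those for cyclic nucleotides and G proteins 7 of 46 tested members rose (6 to 10 with any 1 library left out and 3 in the 6 alone) and 10 fell (4 to 14 and 1), among them Pde9a, a cyclic GMP phosphodiesterase, at 1.46 and Gng2, a G protein subunit, at -0.52. Of phosphoinositide and mTOR genes 9 of 44 tested members rose (8 to 13 with any 1 library left out and 5 in the 6 alone) and 10 fell (4 to 11 and 0). Pik3r3, a regulatory subunit of PI3-kinase, had 18923, 10333 and 27542 in O4 libraries, against 3382, 3671 and 3921 in OPC libraries, and Inppl1, the phosphatase SHIP2, had 12782, 6114 and 16708 in O4 libraries, against 2443, 2152 and 2702 in OPC libraries. Rictor, the defining subunit of mTOR complex 2, had 5588, 4490.1 and 8116 in O4 libraries, against 2922, 2770.1 and 2997 in OPC libraries. Of nuclear receptors 6 of 32 tested members fell (3 to 14 with any 1 library left out and 0 in the 6 alone) and 1 rose (1 and 1) (median -0.29). Thra, a thyroid hormone receptor, rose with 30138, 17105 and 33269 in O4 libraries, against 12274, 11399 and 13166 in OPC libraries, and Nr2e1 and Nr2f1, orphan receptors of neural progenitors, fell by 0.65 and 0.50. In the blocked fit 1 rose and 11 fell in the nuclear receptor list. When values were scaled to library totals 6 rose and 15 fell in the second messenger list, 8 rose and 14 fell in the phosphoinositide list and 1 rose and 11 fell in the nuclear receptor list. Some of these counts moved by over 1.5 times without the O4 library 1, the O4 library 2, the O4 library 3, the OPC library 1, the OPC library 2 or the OPC library 3.

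OPCs carry ion channels and receive synapses from neurons, and genes of channels and transmitter receptors fell more often than they rose in O4 cells. Of voltage-gated potassium channel genes 17 of 33 tested members fell (9 to 17 with any 1 library left out and 3 in the 6 alone) and 2 rose (1 to 2 and 0) (median -0.44). Kcnd3, which carries the A-type current, had 5989.8, 9912 and 6310.3 in O4 libraries, against 13586, 12864 and 13598 in OPC libraries, and its partner Kcnip3 had 11324, 13387 and 9291 in O4 libraries, against 19999, 16772 and 21025 in OPC libraries. Kcnc1, a fast channel, had 897, 1374 and 1202 in O4 libraries, against 1882, 2027 and 2092 in OPC libraries. In Kcnd3 the O4 library 2 lay between the other O4 libraries and the OPC range. Kcnq5 was an exception, with a log2 fold change of 0.91 ± 0.20. Of voltage-gated sodium and calcium channel genes 15 of 29 tested members fell (4 to 16 with any 1 library left out and 0 in the 6 alone) and 0 rose (0 and 0) (median -0.46). The L-type calcium channel Cacna1d had 2108, 3415 and 2689.5 in O4 libraries, against 3957, 3929 and 4472 in OPC libraries, and the sodium channel subunit Scn3b had 2926, 4397 and 2715 in O4 libraries, against 5127, 5147 and 5313 in OPC libraries. Cacng4, a regulator of AMPA receptors, had 29378, 32150.4 and 27551 in O4 libraries, against 39508, 36263 and 44739.6 in OPC libraries.

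Receptors for the fast transmitters went the same way. Of ionotropic glutamate receptor genes and their partners 12 of 30 tested members fell (11 to 15 with any 1 library left out and 3 in the 6 alone) and 0 rose (0 and 0) (median -0.36). Neto1 and Neto2, subunits that tune kainate receptors, both fell. Neto1 had 2664, 4532 and 3914 in O4 libraries, against 6438, 5942 and 7729 in OPC libraries, and Neto2 had 3193, 5631 and 3699 in O4 libraries, against 6733, 6867 and 6985 in OPC libraries. The kainate receptor Grik1 had a log2 fold change of -0.64 ± 0.13. Of GABA-A, glycine and acetylcholine receptor genes 10 of 19 tested members fell (4 to 10 with any 1 library left out and 0 in the 6 alone) and 1 rose (1 and 1) (median -0.65). Chrna4 and Chrnb2, which pair in a nicotinic receptor, fell by 0.71 and 0.75, and the GABA-A subunit Gabra3 by 0.50. Glrb, the subunit shared by glycine receptors, was the exception, with 7277, 5573 and 8248 in O4 libraries, against 4302, 4428 and 4799.9 in OPC libraries. Of inward rectifier and leak channel genes 6 of 18 tested members fell (3 to 8 with any 1 library left out and 2 in the 6 alone) and 3 rose (2 to 3 and 1) (median -0.27). Kcnj12, an inward rectifier, stood out among those that rose, with 562, 241 and 849 in O4 libraries, against 79.4, 46.4 and 88.5 in OPC libraries, while Kcnk2 and Kcnk10, leak channels of the K2P family, fell, at -0.59 and -0.63. Kcnj10, the inward rectifier of glial potassium uptake, had 12391, 13709 and 19079 in O4 libraries, against 10507, 11883 and 15435 in OPC libraries, with no call here but one under the replicate block. On the scale of library totals 0 rose and 19 fell in the glutamate receptor list. Without the O4 library 1, the O4 library 3, the OPC library 1 or the OPC library 3, some counts moved by over 1.5 times.

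Calcium and anion handling was mixed. Of calcium store and pump genes 10 of 32 tested members fell (4 to 14 with any 1 library left out and 0 in the 6 alone) and 4 rose (4 and 2) (median -0.25). The plasma membrane pumps Atp2b2 and Atp2b4 fell, by 0.54 and 0.65, and so did the exchanger Slc8a3, by 0.57. The exchanger Slc24a3 rose, with 8209, 5255 and 9732 in O4 libraries, against 3212, 3429 and 3884 in OPC libraries, and so did Tmem63a, a mechanically gated channel, with 1241, 615 and 1318 in O4 libraries, against 232, 199 and 148 in OPC libraries. Of sodium pump, acid-base and chloride genes 5 of 37 tested members fell (2 to 8 with any 1 library left out and 0 in the 6 alone) and 3 rose (2 to 3 and 1) (median -0.09, or -0.20 scaled to the total). Ttyh2, of the tweety family, had 5075, 2629 and 5629 in O4 libraries, against 878, 1193 and 503 in OPC libraries. The chloride importer Slc12a2 rose by 0.60, and the chloride exporter Slc12a5, typical of neurons, fell by 0.62. Under the replicate block 6 rose and 8 fell in the sodium pump and chloride list. Scaled to the total, 2 rose and 11 fell in the sodium pump and chloride list. A change of over 1.5 times in some counts followed from leaving out the O4 library 1, the O4 library 2, the O4 library 3, the OPC library 1 or the OPC library 3.

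Junction genes held some of the steepest increases, and 6 of 24 tested members rose (4 to 6 with any 1 library left out and 4 in the 6 alone) and 3 fell (2 to 4 and 1) (median 0.02, or -0.10 scaled to the total). Cldn11, the claudin that seals myelin, had 29452, 14082 and 38809.7 in O4 libraries, against 975, 1214 and 1281 in OPC libraries, a log2 fold change of 4.46 ± 0.31. Cldn14 had 251, 123 and 366 in O4 libraries and was listed at 0 in all 3 OPC libraries. Gjb6, a connexin of astrocytes, fell by 0.98, and the polarity gene Pard3 by 0.26. Gjb6 was the only member of the astrocyte list below that fell, while 6 of its 15 members rose. Among adhesion molecules of the immunoglobulin and synaptic kind 16 of 50 tested members fell (8 to 18 with any 1 library left out and 2 in the 6 alone) and 10 rose (6 to 12 and 4) (median -0.18, or -0.29 scaled to the total). Nfasc, which anchors the paranode to the axon, had 114686, 59690.5 and 190137 in O4 libraries, against 8464, 8072 and 9837 in OPC libraries, and Epcam, an adhesion protein better known from epithelia, had 2108, 595 and 2320.4 in O4 libraries, against 29.3, 21.8 and 27.4 in OPC libraries. Mpzl1, a membrane glycoprotein of the immunoglobulin family, had 27958, 17575 and 30739.9 in O4 libraries, against 9608, 9277 and 9676 in OPC libraries. Nrxn3, a presynaptic organiser, Lrrtm3, its postsynaptic counterpart, and the contactin Cntn4 fell, at -0.78, -0.44 and -0.74.

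Of cadherins and protocadherins 15 of 36 tested members fell (5 to 20 with any 1 library left out and 0 in the 6 alone) and 3 rose (1 to 4 and 0) (median -0.35). Pcdh15, a protocadherin that marks OPCs, had 7013, 13325 and 9822 in O4 libraries, against 17539.5, 16081 and 19103 in OPC libraries. Cdh4 had 1763, 3196 and 1752 in O4 libraries, against 3269, 4240.2 and 4015 in OPC libraries, and Cdh20, which rose, had 3263, 2379.9 and 4412 in O4 libraries, against 1919.8, 1859.8 and 2075 in OPC libraries. Integrin genes were split, and 5 of 24 tested members rose (4 to 7 with any 1 library left out and 2 in the 6 alone) and 4 fell (1 to 4 and 0) (median 0.12, or 0.00 scaled to the total). The 3 that rose with the smallest p encode parts of the complex inside the cell: Ilk (integrin-linked kinase) had 8819.9, 5321 and 9326 in O4 libraries, against 3489, 3556 and 3327 in OPC libraries, Pxn (paxillin) had a log2 fold change of 0.67 ± 0.11, and Ptk2 (focal adhesion kinase) had one of 0.41 ± 0.09. Itga8, a receptor chain, fell by 0.70, and Itgb1, the common beta chain, was not called, with 23296, 22346 and 26811 in O4 libraries, against 21709.5, 21497 and 21489.9 in OPC libraries. In the blocked fit 5 rose and 18 fell in the cadherin list. Omitting the O4 library 1, the O4 library 3, the OPC library 1, the OPC library 2 or the OPC library 3 moved some of the counts by over 1.5 times.

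Guidance genes changed in both directions, and 18 of 67 tested members fell (11 to 25 with any 1 library left out and 2 in the 6 alone) and 13 rose (10 to 14 and 6) (median -0.18, or -0.29 scaled to the total). Sema4d, a semaphorin that can collapse growth cones, had 15747, 8025 and 22663 in O4 libraries, against 1077, 1074 and 1164 in OPC libraries. Plxnb3, a plexin receptor, had 20148, 9667 and 34576 in O4 libraries, against 2011, 1609 and 2661 in OPC libraries, and Sema4a had 1834, 1050.3 and 2107 in O4 libraries, against 412, 436 and 435 in OPC libraries. Their log2 fold changes were 3.68 ± 0.27, 3.20 ± 0.33 and 1.90 ± 0.20. Dcc, the netrin receptor of migrating OPCs, had 2318, 3447 and 3399.9 in O4 libraries, against 4524, 4479.6 and 5299 in OPC libraries, and the ephrin receptor Epha8, near the bottom of the range, had 36.7, 60.3 and 28.5 in O4 libraries, against 111, 171 and 122 in OPC libraries. Matrix genes fell more often than they rose. Of basement membrane and collagen genes 13 of 40 tested members fell (9 to 18 with any 1 library left out and 6 in the 6 alone) and 4 rose (3 to 5 and 2) (median -0.31). Col4a5 and Col4a6, which share a promoter region head to head, both fell. Col4a5 had 749, 621 and 614 in O4 libraries, against 1623, 1716 and 1471 in OPC libraries, and Col4a6 had 223, 216 and 152 in O4 libraries, against 586, 1063 and 556 in OPC libraries. The fibril-associated collagen Col9a3 rose, with 26560.2, 12932 and 26108 in O4 libraries, against 10131, 8489.7 and 9985 in OPC libraries, and so did Col11a2, with 12434, 6795 and 14259 in O4 libraries, against 4666, 3945 and 5982 in OPC libraries. Of proteoglycan, tenascin and hyaluronan genes 8 of 33 tested members fell (5 to 11 with any 1 library left out and 1 in the 6 alone) and 3 rose (2 to 4 and 1) (median -0.27), with the neurite proteoglycans Cspg5 at -0.70 and Sdc3 at -0.61.

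Enzymes that build or cut the cell surface changed in part strongly. Of glycan transferases and sulfotransferases 14 of 58 tested members fell (10 to 21 with any 1 library left out and 2 in the 6 alone) and 5 rose (5 to 8 and 4) (median -0.18, or -0.30 scaled to the total). Ust, which sulfates chondroitin and dermatan chains on uronic acid, had 11356, 5571 and 17061 in O4 libraries, against 2139, 1994 and 2336 in OPC libraries. Gal3st1, the sulfotransferase that completes sulfatide and so the antigen of the O4 sort, had 6785, 3787 and 8451 in O4 libraries, against 2649.6, 2248 and 2834 in OPC libraries. Chst11, which adds sulfate to chondroitin chains, had 9510.0, 14086 and 9884 in O4 libraries, against 19164, 17278 and 18812 in OPC libraries. Sulf2, the most abundant member, had 52984, 49542 and 54789 in O4 libraries, against 53242, 46996 and 57671 in OPC libraries, and the sorts overlapped. Of proteases and their inhibitors 14 of 45 tested members fell (10 to 18 with any 1 library left out and 4 in the 6 alone) and 7 rose (6 to 7 and 4) (median -0.25). Adamts4, a proteoglycan-cutting protease of iOLs, had 13780.3, 5035 and 17655 in O4 libraries, against 492, 349.6 and 444 in OPC libraries, and the carboxypeptidase Cpm had 1923, 779 and 2801 in O4 libraries, against 146, 183 and 137 in OPC libraries. Mmp15, a membrane-bound metalloprotease, had 25443, 39369.7 and 22285 in O4 libraries, against 48850.5, 47369.5 and 56893 in OPC libraries, and the metalloprotease Adam19 fell by 0.71. With numbers as a block, 4 rose and 14 fell in the proteoglycan list. On the scale of library totals 11 rose and 24 fell in the guidance list, 1 rose and 11 fell in the proteoglycan list and 5 rose and 23 fell in the glycan list. Counts here moved in part by over 1.5 times without the O4 library 1, the O4 library 2, the O4 library 3 or the OPC library 3.

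Actin and microtubule genes rose more often than they fell, and cilium genes did not. Of actin regulators 31 of 75 tested members rose (24 to 33 with any 1 library left out and 16 in the 6 alone) and 9 fell (1 to 15 and 0) (41.3% of members higher, median 0.16, or 0.05 scaled to the total). Arpc1b, a subunit of the Arp2/3 complex that branches actin, had 4029, 2284 and 4673 in O4 libraries, against 1014, 943 and 666 in OPC libraries. The guanine nucleotide exchange factors Arhgef10 and Arhgef28 rose by 1.81 and 1.44, and the actin stabiliser Tpm1 fell by 0.42. Of microtubule, motor and septin genes 23 of 67 tested members rose (19 to 27 with any 1 library left out and 13 in the 6 alone) and 11 fell (9 to 13 and 2) (median 0.13, or 0.02 scaled to the total). Tubb4a, the beta tubulin of myelinating cells, had 63502, 26324 and 78071 in O4 libraries, against 6045, 5482 and 6000.3 in OPC libraries. Map1b, a microtubule stabiliser of growing processes, had 32911, 18215 and 72355 in O4 libraries, against 3544, 3851 and 3587 in OPC libraries, and the kinesin Kif21a had 2451, 1466 and 4418 in O4 libraries, against 481, 478 and 408 in OPC libraries. The O4 library 3 was highest in all 3 genes. Nefm, a neurofilament, fell by 0.60 and the kinesin Kif13a by 0.52. Of primary cilium genes 8 of 47 tested members fell (2 to 11 with any 1 library left out and 0 in the 6 alone) and 0 rose (0 to 3 and 0) (median -0.14, or -0.25 scaled to the total), with the transport subunit Ift81 at 954, 914 and 859 in O4 libraries, against 1246, 1183 and 1164 in OPC libraries. The cilium motor Kif3a was not called, with a log2 fold change of 0.00 ± 0.08. Scaled to the total, 0 rose and 13 fell in the cilium list. Some of these counts moved by over 1.5 times without the O4 library 1, the O4 library 2, the O4 library 3, the OPC library 1 or the OPC library 3.

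Endosome and lysosome genes rose more often than they fell. Of endosome and Golgi genes 19 of 62 tested members rose (16 to 28 with any 1 library left out and 4 in the 6 alone) and 4 fell (0 to 6 and 0) (median 0.13, or 0.02 scaled to the total). Rab33a, a small GTPase of vesicle traffic, had 3921, 1678 and 4320.2 in O4 libraries, against 485, 441 and 461 in OPC libraries, and Bin1 (amphiphysin 2), which bends membranes, had 6427, 3152 and 6134 in O4 libraries, against 1817, 1604 and 1683 in OPC libraries. Dnm2, the dynamin of all cells, rose by 0.94. Of lysosome and autophagy genes 23 of 55 tested members rose (16 to 26 with any 1 library left out and 4 in the 6 alone) and 1 fell (0 to 5 and 0) (median 0.19, or 0.07 scaled to the total). Tfeb, the transcription factor that drives lysosome genes and restrains myelination, had 2942, 1141 and 2900.0 in O4 libraries, against 587, 409 and 397 in OPC libraries. Neu4, a sialidase, had 12870.3, 5791 and 15697 in O4 libraries, against 2964, 1651 and 3796 in OPC libraries. Psap, which encodes the saposins and is the most abundant member, had 49002, 41506 and 38659 in O4 libraries, against 42037, 36137 and 39622 in OPC libraries, and the sorts overlapped. The exocytosis list was split, and 15 of 54 tested members fell (7 to 22 with any 1 library left out and 2 in the 6 alone) and 9 rose (7 to 12 and 5) (median -0.22, or -0.34 scaled to the total). Rab3a, Sv2a and Stx2, parts of the release machinery, rose by 1.54, 1.10 and 1.18. Rph3a, which binds Rab3 proteins, Unc13a, which primes vesicles, and the SNARE gene Snap25, which is also a neuronal marker, fell, at -0.85, -0.73 and -0.54. In the blocked fit 26 rose and 2 fell in the lysosome list and 11 rose and 23 fell in the exocytosis list. When values were scaled to library totals 18 rose and 8 fell in the endosome and Golgi list, 16 rose and 3 fell in the lysosome list and 6 rose and 23 fell in the exocytosis list. Without the O4 library 1, the O4 library 2, the O4 library 3, the OPC library 1, the OPC library 2 or the OPC library 3, some counts moved by over 1.5 times.

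Genes of energy metabolism that changed were higher in O4 cells, by small amounts. All 73 tested genes of oxidative phosphorylation had a positive log2 fold change (67 scaled to the library total), and 29 of 73 tested members rose (5 to 56 with any 1 library left out and 0 in the 6 alone) and 0 fell (0 and 0) (median 0.28, or 0.17 scaled to the total). Uqcr11 of complex III had 2467, 1671 and 2381 in O4 libraries, against 1459, 1304 and 1404 in OPC libraries. Ndufv3 of complex I had 2903, 1677 and 2636 in O4 libraries, against 1456, 1440.1 and 1405 in OPC libraries, a log2 fold change of 0.71 ± 0.15, and Ndufa7 of the same complex had 2266, 1600.3 and 2033 in O4 libraries, against 1386, 1325 and 1394 in OPC libraries. Values of the O4 library 2 were only just above the OPC range in these genes, and on the scale of the 2aOKO libraries the O4 libraries stood at 1.92, 0.38 and 1.42 for this list, against 0.41, 0.16 and 0.09 for the OPC libraries. The OPC library 1 thus stood above the O4 library 2. Of mitochondrial ribosome genes 14 of 76 tested members rose (5 to 29 with any 1 library left out and 1 in the 6 alone) and 0 fell (0 and 0) (median 0.16, or 0.05 scaled to the total), with Mrps12 at 0.77 and Mrpl53 at 0.66. Of tricarboxylic acid cycle genes 9 of 33 tested members rose (4 to 16 with any 1 library left out and 1 in the 6 alone) and 0 fell (0 to 2 and 0) (median 0.15, or 0.04 scaled to the total). Idh1, the cytosolic isocitrate dehydrogenase that makes NADPH, had 13138, 9481 and 15128 in O4 libraries, against 7219, 7545 and 6446 in OPC libraries. On the scale of library totals 12 rose and 0 fell in the oxidative phosphorylation list, 8 rose and 0 fell in the mitochondrial ribosome list and 5 rose and 3 fell in the tricarboxylic acid list. A change of over 1.5 times in some counts followed from leaving out the O4 library 1, the O4 library 2, the O4 library 3, the OPC library 2 or the OPC library 3.

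Sugar and amino acid metabolism held larger single changes. Of genes for glycolysis and for the transport of glucose and lactate 17 of 39 tested members rose (13 to 19 with any 1 library left out and 10 in the 6 alone) and 1 fell (1 to 2 and 0) (median 0.29, or 0.18 scaled to the total). Hk2, the hexokinase bound to mitochondria, had 646, 448 and 841 in O4 libraries, against 203, 257 and 145 in OPC libraries. Slc16a3, a lactate exporter, had 316, 237 and 385 in O4 libraries, against 40.6, 65.5 and 32.7 in OPC libraries, and Taldo1, of the pentose phosphate pathway, had 13156, 7070.0 and 14787 in O4 libraries, against 4335, 4037 and 4402 in OPC libraries. The neuronal glucose transporter Slc2a3 fell by 0.43. Of serine, one-carbon and nucleotide genes 8 of 38 tested members rose (4 to 10 with any 1 library left out and 1 in the 6 alone) and 6 fell (2 to 7 and 0) (median near 0, or -0.11 scaled to the total). Psat1, of serine synthesis, rose by 0.85, while Gldc, which breaks glycine down, and the nucleotide gene Ctps2 fell, at -0.55 and -0.43. Of genes for amino acid synthesis, creatine and polyamines 12 of 33 tested members rose (8 to 12 with any 1 library left out and 5 in the 6 alone) and 3 fell (1 to 5 and 1) (median 0.26, or 0.14 scaled to the total). Gamt, the last enzyme of creatine synthesis, had 718, 307 and 832 in O4 libraries, against 112, 51 and 90.6 in OPC libraries. Abat, which degrades GABA, had 8635, 6683 and 13079 in O4 libraries, against 4101, 3982 and 4868 in OPC libraries, and Cbs, the first enzyme of cysteine synthesis, had 255, 347 and 201 in O4 libraries, against 94.5, 82.8 and 74.8 in OPC libraries. Sms (spermine synthase) went down, with 1113, 1322 and 829 in O4 libraries, against 2073, 1883 and 1913 in OPC libraries. Under the replicate block 19 rose and 2 fell in the glycolysis list. Scaled to the total, 6 rose and 8 fell in the serine and nucleotide list and 8 rose and 5 fell in the amino acid synthesis list. Omitting the O4 library 1, the O4 library 2, the O4 library 3, the OPC library 1 or the OPC library 3 moved some of the counts by over 1.5 times.

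Transport across the cell membrane and metal handling differed gene by gene. Of amino acid and transmitter carriers 7 of 38 tested members fell (3 to 13 with any 1 library left out and 2 in the 6 alone) and 5 rose (3 to 5 and 1) (median -0.08, or -0.19 scaled to the total). Slc7a11, which takes up cystine for glutathione synthesis, had 888, 1199.6 and 878 in O4 libraries, against 2129, 3166 and 2396 in OPC libraries, a log2 fold change of -1.37 ± 0.21. Slc6a13, a GABA carrier of the meninges, had 477, 435 and 274 in O4 libraries, against 989.7, 1441 and 975 in OPC libraries, and Slc7a3, a carrier of arginine, fell by 0.57. Slc1a1, a glutamate carrier, rose, with 21227, 14453 and 28627 in O4 libraries, against 10048, 10012 and 12067 in OPC libraries. Of metal genes 6 of 37 tested members rose (5 to 8 with any 1 library left out and 3 in the 6 alone) and 2 fell (1 to 5 and 1) (median 0.08, or -0.03 scaled to the total). Trf (transferrin), which oligodendrocytes secrete, had 3890.1, 2539.7 and 5080.3 in O4 libraries, against 1078, 1311 and 571 in OPC libraries. Alad of heme synthesis rose by 1.25, and Cp (ceruloplasmin) fell by 0.89. In the blocked fit 5 rose and 11 fell in the carrier list and 8 rose and 5 fell in the metal list. When values were scaled to library totals 3 rose and 9 fell in the carrier list and 5 rose and 6 fell in the metal list. Counts here moved in part by over 1.5 times without the O4 library 1, the O4 library 2, the O4 library 3, the OPC library 1, the OPC library 2 or the OPC library 3.

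Genes of stress and protein quality rose more often than they fell. Of glutathione and oxidant defence genes 9 of 44 tested members rose (7 to 15 with any 1 library left out and 3 in the 6 alone) and 3 fell (2 to 6 and 1) (median 0.07, or -0.04 scaled to the total). Gsto1, a glutathione transferase, had 1761, 1399 and 2889 in O4 libraries, against 658, 619.9 and 652 in OPC libraries, and Gpx1, a glutathione peroxidase, had 4300.1, 3289.6 and 3420.1 in O4 libraries, against 2492, 2452 and 2196 in OPC libraries. Gss, which completes glutathione, rose by 0.85. Of p53 target and apoptosis genes 11 of 39 tested members rose (7 to 13 with any 1 library left out and 2 in the 6 alone) and 2 fell (2 to 6 and 0) (median 0.13, or 0.02 scaled to the total). Bbc3 (Puma), a trigger of apoptosis, had 864, 500.3 and 597 in O4 libraries, against 237, 375 and 280.3 in OPC libraries, and Bnip3, of mitochondrial turnover, had 1519, 1007 and 1946 in O4 libraries, against 667, 559.8 and 531 in OPC libraries. Bcl2, which holds apoptosis back, had 829, 1281 and 745 in O4 libraries, against 1583, 1462 and 1404 in OPC libraries. With numbers as a block, 11 rose and 5 fell in the p53 target list. On the scale of library totals 7 rose and 4 fell in the oxidant defence list and 7 rose and 7 fell in the p53 target list. Some of these counts moved by over 1.5 times without the O4 library 2, the O4 library 3 or the OPC library 1.

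Proteasome genes that changed were all higher in O4 cells, and 20 of 40 tested members rose (5 to 30 with any 1 library left out and 0 in the 6 alone) and 0 fell (0 and 0) (50%, median 0.27, or 0.16 scaled to the total). Psma7 and Psmb2 of the core particle both rose. Psma7 had 3912, 3042 and 3784 in O4 libraries, against 2595, 2606 and 2619 in OPC libraries, and Psmb2 had 2868, 2263 and 2560.3 in O4 libraries, against 1916, 1905 and 1987 in OPC libraries. Of chaperones 16 of 47 tested members rose (5 to 29 with any 1 library left out and 2 in the 6 alone) and 3 fell (1 to 3 and 0) (median 0.21, or 0.10 scaled to the total). Fkbp9, a prolyl isomerase of the endoplasmic reticulum, had 7462, 5348 and 7373 in O4 libraries, against 4189, 3747 and 4268 in OPC libraries, and Cct2, of the ring that folds tubulin and actin, had 8893, 6920.4 and 9341 in O4 libraries, against 6259, 6201 and 5960.0 in OPC libraries. Of ubiquitin ligases and deubiquitinases 16 of 54 tested members rose (15 to 18 with any 1 library left out and 9 in the 6 alone) and 6 fell (4 to 10 and 2) (median 0.02, or -0.10 scaled to the total). Rnf122 had 9125, 4558 and 12719.6 in O4 libraries, against 1396, 1619 and 1415 in OPC libraries, and Marchf8, which removes receptors from the surface, had 20517, 12036 and 29335 in O4 libraries, against 5364, 5552 and 5839 in OPC libraries. Trim67, a ligase of neural cells, fell, with 2633, 3375 and 2749 in O4 libraries, against 5517, 4684 and 6577 in OPC libraries. Scaled to the total, 4 rose and 0 fell in the proteasome list, 10 rose and 3 fell in the chaperone list and 15 rose and 12 fell in the ubiquitin list. Without the O4 library 1, the O4 library 2, the O4 library 3, the OPC library 1, the OPC library 2 or the OPC library 3, some counts moved by over 1.5 times.

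The position of the O4 library 2 between the sorts differed between lists. Positions were computed for the 58 lists with at least 10 genes called in the 2aOKO libraries alone, myelin, the cell cycle and other cell types included. This breakdown was chosen after the values were seen. In 55 lists the O4 library 2 stood below both other O4 libraries, and in 57 above all 3 OPC libraries. Its position ran from 0.16 for the cell cycle to 1.15 for microglial genes, with a median of 0.58. O4 libraries 1, 2 and 3 stood at 0.89, 0.16 and 1.39 for the cell cycle, 1.12, 0.30 and 1.37 for nuclear receptors and 0.97, 0.31 and 1.25 for feedback genes. They stood at 1.06, 0.80 and 1.15 for junction genes and 1.04, 0.81 and 1.20 for myelin. For microglial genes the order was another, at 1.23, 1.15 and 0.73. The lists share libraries, and for lists of small fold changes the scale is short and the positions of all libraries scatter more. The lists named here also differed in the mean size of the log2 fold change in the 2aOKO libraries. It was 3.47 for myelin, 2.25 for junction genes and 1.49 for microglial genes. For the cell cycle it was 0.78, for feedback genes 0.63 and for nuclear receptors 0.50. The part of this size in the positions was not tested.

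**Figure D4:**
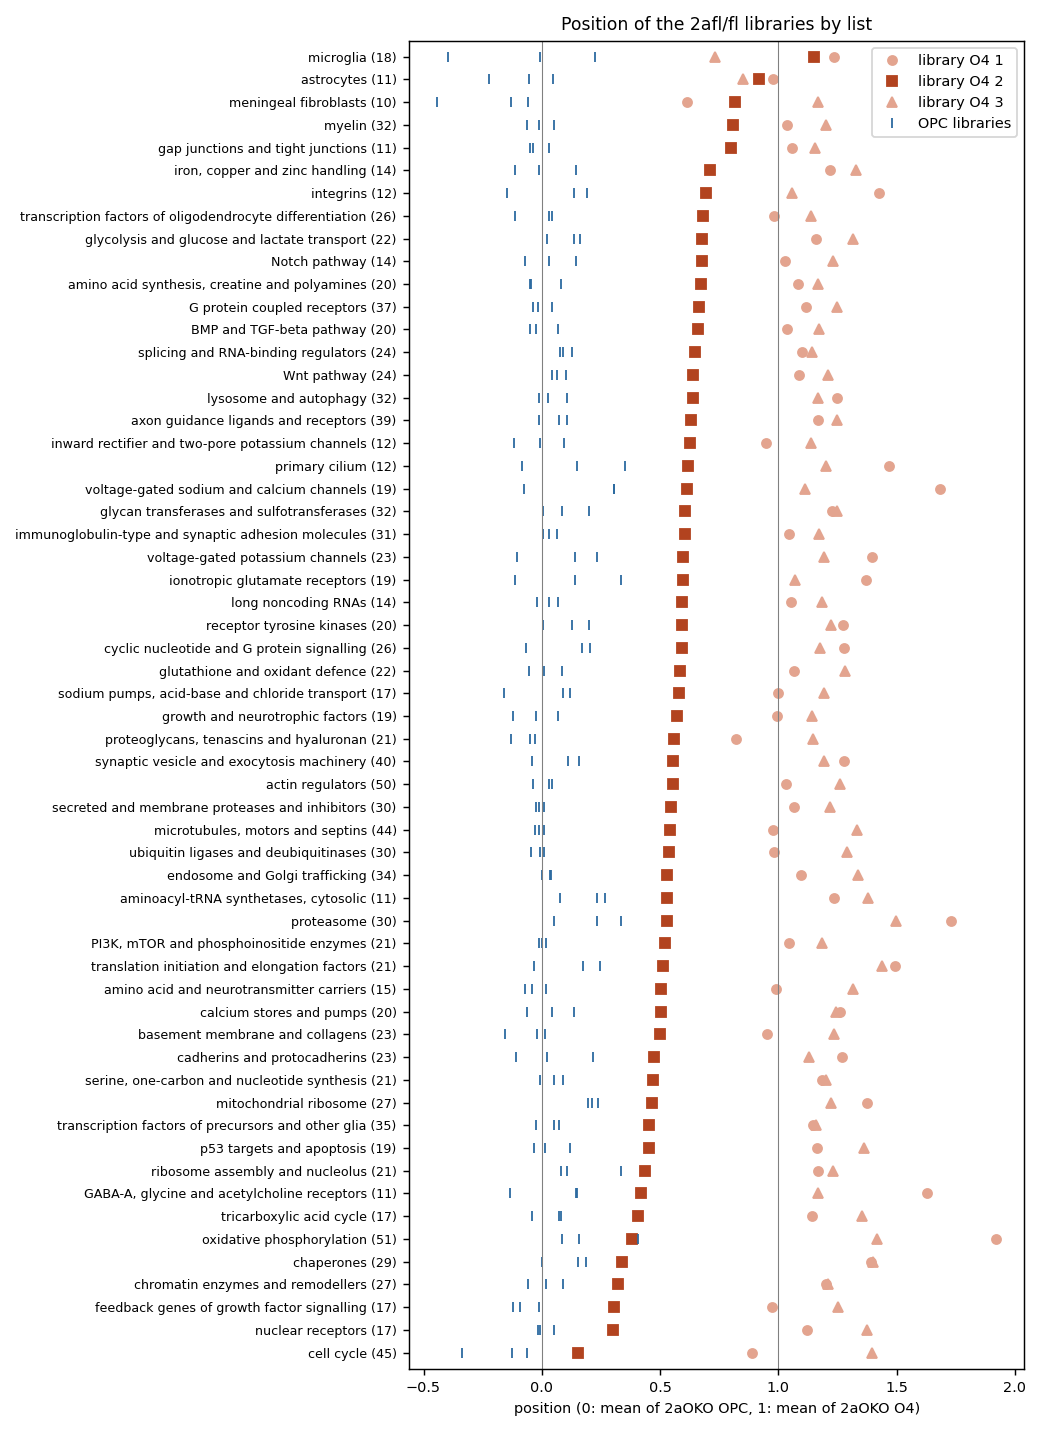
Position of the 3 O4 libraries (circle, square and triangle for libraries 1, 2 and 3) and the 3 OPC libraries (blue ticks) of 2afl/fl mice for 58 lists, on the scale from 0, the mean of the 2aOKO OPC libraries, to 1, the mean of the 2aOKO O4 libraries, with the number of genes in brackets. The O4 library 2 ranges from 0.16 for the cell cycle to 1.15 for microglial genes.

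Genes that fell were longer than genes that rose. The median span from start to end in the deposited annotation was 18.9 kb for the genes that rose, 46.0 kb for those that fell and 22.4 kb for all tested. Of 5 bins with equal numbers of genes, the bin of the shortest genes had 16.4% higher and 5.81% lower, and the bin of the longest had 12.3% higher and 22.6% lower. In the 2aOKO libraries the shares lower were 8.42% and 27.3% in these bins. Without the O4 library 2 the 2afl/fl shares were 23.8% higher and 9.28% lower in the bin of the shortest genes, and 15.4% higher and 31.8% lower in that of the longest. The median span was 6.87 kb for oxidative phosphorylation and 11.3 kb for the proteasome, against 129 kb for voltage-gated sodium and calcium channels and 132 kb for cadherins. The part of gene length in the list counts was not tested.

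**Figure D5:**
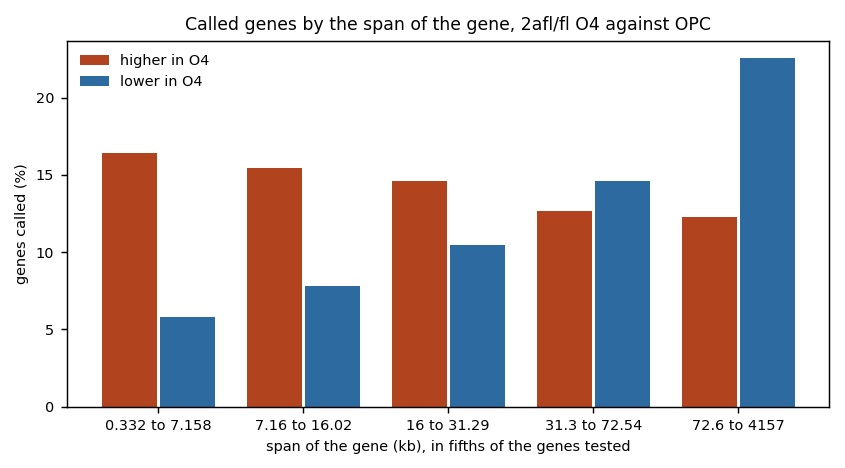
Share of the genes tested that rose (left bar of each pair) or fell (right bar) in 2afl/fl O4 cells against OPCs, in percent, in 5 bins of genomic span in kb. The share that fell is 5.81% in the bin of the shortest genes and 22.6% in that of the longest.

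Markers of other cells moved with the sort as well. Their counts, too, are to be read against 14.3% of all genes higher and 12.2% lower. Of 19 microglial genes 17 rose and 0 fell, and their summed level was 9743 to 16128 in O4 libraries, against 3889.5 to 6513 in OPC libraries. Csf1r, the receptor for Csf1, had 2392, 2337 and 1669.7 in O4 libraries, against 886, 771 and 568 in OPC libraries. Of 10 border macrophage genes 6 rose, with sums of 2906 to 2979 in O4 libraries, against 835 to 1287 in OPC libraries. Mrc1, the mannose receptor, had 796, 615 and 1020.1 in O4 libraries, against 201, 111 and 160.2 in OPC libraries. Of 12 tested meningeal fibroblast genes 10 fell, with sums of 25688 to 41236 in O4 libraries, against 62658 to 79788 in OPC libraries. Col1a2 had 5776, 4375 and 3639 in O4 libraries, against 9863, 12914 and 9354 in OPC libraries. Of 15 astrocyte genes 6 rose and 1 fell (4 without the O4 library 2 and 2 without the OPC library 1), with sums of 61202 to 83306 in O4 libraries, against 62314 to 69994 in OPC libraries, which overlap.

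Neuronal, vascular and other markers changed less. Sums of the interneuron list were 10866 to 17141 in O4 libraries, against 18549 to 21752 in OPC libraries, and 4 of 14 tested members fell (0 without the O4 library 1, and 2 without the O4 library 3, the OPC library 2 or the OPC library 3). Excitatory neuron genes had sums of 3988 to 4638 in O4 libraries, against 4370.1 to 4865 in OPC libraries. Of their 14 tested members 3 rose (1 without the OPC library 3) and 3 fell. The endothelial and erythroid lists had no call (1 higher each under the block), with sums of 33398 to 60638 in O4 libraries, against 31632 to 47492 in OPC libraries for endothelium. The mural list had sums of 54631 to 131075 in O4 libraries, against 96111 to 145725 in OPC libraries, most of it from Cspg4 (NG2), which OPCs express too, and 1 of 12 genes fell (2 without the O4 library 2). Cspg4 had 33189, 98928 and 30852 in O4 libraries, against 64532, 116056 and 75886 in OPC libraries, and was called only under the block. Ependymal and choroid plexus genes had no call (2 lower under the block). Ttr (transthyretin), their most abundant gene, had 309056, 62641 and 90022 in O4 libraries, against 284531, 89209.8 and 107174 in OPC libraries, so the libraries numbered 1 stood apart in both sorts alike. In the 6 libraries alone 11 microglial and 6 border macrophage genes rose and 10 fibroblast genes fell. The part of other cells in the changes above was not tested.

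The same direction was seen in the 2aOKO mice. Of the 2223 genes that rose, 2220 had a positive log2 fold change in the 2aOKO libraries and 1968 passed there. Of the 1905 that fell, 1897 had a negative one and 1630 passed. Over all 15565 genes tested 5145 passed there, in either direction. Both comparisons come from the same fit and share its estimate of the spread, so they are not independent. The difference of the sort effect between the genotypes passed limma's test in 0 of 15565 genes, with 132 at an unadjusted p under 0.05. This count does not show that the sort effects are equal.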

How the data were processed

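RNA sequencing libraries were made from 14 samples of sorted cells. The authors aligned paired-end reads to mm39 with STAR 2.7.8a in Partek Flow 10 and counted them against RefSeq genes with fractions for reads that fit several transcripts. The authors deposited a signal per gene, these counts over the DESeq2 median-ratio size factor of each library. Raw depth cannot be recovered from them, so no counting error is given. Deposited tables of the authors' own comparisons hold fold changes and p-values and were not used.

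Here genes averaging at least 10 were tested on log2(value + 1) with limma 3.58.1 in R 4.3.3 (trend, 4 group means over 14 libraries, Benjamini-Hochberg over 15565 genes), a test checked on simulated data. The simulation drew libraries independently, with equal spread in all groups. It held neither the pairing given below nor an intermediate library, so it does not cover them. The study counts its replicates as animals, and whether an animal gave cells to both sorts is not given in the sources used here. Same-numbered libraries of the sorts deviated together (r of 0.32, 0.26 and 0.33 in 2afl/fl and 0.16 to 0.31 in 2aOKO, against at most 0.0075 for other numbers). This pairing comes from the data, not from the labels.

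The members and lists were chosen with earlier results of these data known. Named genes are the 5 markers, per list of functions up to 3 called members per direction with the smallest p and a mean of at least 50, the most abundant uncalled member, 15 genes per direction outside the lists, and the 2 most abundant members per list of other cells. A few genes this rule takes are not reported here. Alternatives were the pseudocount, filter, scaling, trend, replicate block, the 6 libraries alone and each library left out. Promoters were matched to RefSeq GRCm38.p6 by symbol. Near-identical gene copies and overlapping genes may share reads.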

Additional observations from a re-analysis of the deposited data

How the results depend on the processing

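With the replicate number as a block, to follow the pairing of the libraries, 2706 genes rose and 2531 fell, against 2223 and 1905 without it, and among the 346 named genes the block lost 0 calls and added 9. The 6 libraries fitted alone gave 628 higher and 220 lower, with 138 named genes losing their call. Scaled to the library total, 2974 genes fell and 1575 rose, and scaled to the upper quartile 2275 fell and 1983 rose. Leaving out each library in turn gave 1430 to 3033 higher and 1027 to 2847 lower, the largest counts without the O4 library 2. An alternative chosen after seeing the data, without both libraries numbered 2, gave 2757 and 2508. Other pseudocounts, filters and no trend gave 2026 to 2229 higher and 1672 to 1947 lower. None of the 309 called named genes changed sign in any of these fits, and 16 of the 37 uncalled ones did. Nearly all the called ones were picked by p in the main fit, and the fits share most libraries. Their kept sign is therefore no independent check. The cause of the differences between the fits was not tested. Groups of 3 leave small changes, such as those of mitochondrial genes, near the limit of the test.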
